A study of Mus musculus with 12 samples.

Results

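Collagens are secreted proteins of the extracellular matrix built from 3 chains wound into a triple helix. The family was taken here as every array probe annotated to 1 mouse gene symbol of the form Col, number, a, number. This gave 91 of the 45281 probes on the array, for 41 of the 19057 named genes and 25 collagen types. A probe of 30 of these genes, of 21 types, was detected on at least 2 of the 12 arrays, and those 30 genes were tested. Expression was measured with Illumina bead arrays in fresh-frozen mouse tissue, in 4 osteosarcomas (cancers of bone-forming cells), 4 leiomyosarcomas (cancers whose name refers to smooth muscle), 2 samples of normal muscle and 2 of normal bone marrow.

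The labels gave all 4 groups, normal tissue included, the genotype p53 flow/flox and no treatment, and described mice with a p53 mutation kept until tumours or limb paralysis were seen. They named no recombinase, age or sex and no share of tumour cells. Muscle 1 and bone marrow 2 carry the same animal code, and nothing states that every other sample came from its own animal, so every p-value reflects just how far these samples lie apart, a spread that may be technical. In such bulk tissue, fewer cells of a type and less RNA per cell cannot be told apart. All 4 osteosarcomas and leiomyosarcomas 3 and 4 were on arrays with background constants of 99.3 to 110.1, and the normal tissues and leiomyosarcomas 1 and 2 on arrays with 80.8 to 84.2. Results were therefore also fitted with the background set as a block. Osteosarcoma and normal tissue share no background set, so between them the block rests on the leiomyosarcomas alone. There it cannot separate tissue from background set, whether a call holds or ends with it.

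The labels were set against marker genes, summed on the linear scale and given as log2. The 7 tested osteoblast markers summed to 15.2 to 16.1 in osteosarcoma and to 7.67 to 8.39 in the other groups, the 7 skeletal muscle markers to 18.02 to 18.09 in muscle, and the 7 neutrophil markers to 18.1 to 18.2 in bone marrow. The 7 tested smooth muscle markers summed to 12.2 to 14.5 in leiomyosarcoma against 14.8 to 15.3 in muscle and 12.2 to 14.99 in osteosarcoma. A linear sum follows its brightest members, so these sums do not rank the groups by smooth muscle content. Of the listed markers, no probe of Myh11, Cnn1 or Myocd was detected on more than 2 of the 12 arrays. Tagln reached 4 arrays, Lmod1 0, Des 11 and Smtn 12. Myh11, the smooth muscle myosin heavy chain, was detected on 0 of 4 leiomyosarcoma arrays, so a defining marker of the name leiomyosarcoma was absent at the level these arrays measure, while Acta2, smooth muscle actin, was detected on 4 of 4, as on all 12 arrays. Skeletal muscle markers also ran through the tumours unevenly, with sums of 15.6, 7.76, 10.6 and 12.2 in osteosarcomas 1 to 4 and 7.48, 9.81, 8.09 and 7.53 in leiomyosarcomas 1 to 4, and their part in the results below was not tested.

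Fibril-forming collagens (types 1, 2, 3, 5, 11, 24 and 27) assemble into the banded fibres that carry load, type 1 in bone and type 2 in cartilage. Network-forming collagens (types 4, 8 and 10) build sheets such as the basement membrane, while other types decorate fibrils, form beaded filaments or anchoring fibrils, or span the cell membrane. Chains are hydroxylated and folded in the endoplasmic reticulum, trimmed by proteases after secretion and then cross-linked, and osteoblasts, the bone-forming cells, are known as strong producers of type 1 collagen.

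The promoter windows of Col4a1 and Col4a2 are shown because these genes lie head to head, and that of Col1a2 as a gene of type 1. No window was available for Col1a1. Each runs from 250 bases before to 50 bases after the annotated start, 5′ to 3′ on the gene's own strand, from RefSeq on build GRCm38.p6. Col4a1 (chr8:11312777-11313076, minus strand) and Col4a2 (chr8:11312555-11312854, plus strand) lie head to head, with starts 21 bases apart, so their windows share the 78 bases from 11312777 to 11312854, in capitals. Col1a2 (chr6:4505368-4505667, plus strand) has the motif CCAAT in capitals once on each strand, which reads ATTGG where it lies on the other strand. The Col4a1 window also holds ATTGG once and the Col4a2 window CCAAT once, where capitals do not mark the motif.
Col4a1: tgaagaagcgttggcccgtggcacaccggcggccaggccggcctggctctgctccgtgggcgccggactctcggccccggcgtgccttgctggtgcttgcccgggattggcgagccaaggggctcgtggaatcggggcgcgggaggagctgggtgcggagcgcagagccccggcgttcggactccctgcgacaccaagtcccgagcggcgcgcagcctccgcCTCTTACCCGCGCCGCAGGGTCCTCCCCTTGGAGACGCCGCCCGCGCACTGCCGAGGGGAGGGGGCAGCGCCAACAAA
Col4a2: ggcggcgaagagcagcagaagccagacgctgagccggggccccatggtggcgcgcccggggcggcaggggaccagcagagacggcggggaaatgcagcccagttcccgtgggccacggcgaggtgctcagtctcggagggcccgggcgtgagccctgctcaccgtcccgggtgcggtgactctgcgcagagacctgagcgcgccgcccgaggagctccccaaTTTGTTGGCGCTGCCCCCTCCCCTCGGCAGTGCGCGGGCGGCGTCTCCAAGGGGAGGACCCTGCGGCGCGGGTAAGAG
Col1a2: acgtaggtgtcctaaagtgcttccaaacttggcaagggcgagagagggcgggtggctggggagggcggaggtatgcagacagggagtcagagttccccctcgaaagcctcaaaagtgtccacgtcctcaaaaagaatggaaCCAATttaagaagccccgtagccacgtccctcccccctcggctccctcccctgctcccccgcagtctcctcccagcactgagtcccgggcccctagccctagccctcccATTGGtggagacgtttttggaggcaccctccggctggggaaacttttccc
CCAAT, on either strand and not overlapping another motif searched, was found in 10 of 25 windows of 23 tested collagen genes and in 12289 of 32851 windows of all genes (37.4%). A match describes these letters and is no evidence of binding.

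All levels below are log2 of the normalised signal, listed in replicate order, and differences are log2 differences with the standard error (SE) of a limma model of the 4 group means. A gene was called when its Benjamini-Hochberg adjusted p over the 11754 genes tested was under 0.05 and its difference at least 1. The lowest detected signal of the arrays lay between 5.11 and 5.62, so values in that range or lower carry no order. A gene detected on no array of a group has only a bound there, printed as a fold it reaches at the least, the mean of the brighter group over that limit. Calls, medians of differences and the plot of differences use fitted values throughout, which are no such bounds. Each probe has its own brightness, so no gene's level is set against another's.

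In osteosarcoma against bone marrow 18 of 30 collagen genes were higher and 0 lower, where 14.8% of all genes tested were called higher and 13% lower. The median difference of the 30 genes was 3.35, against 0.03 over all genes. Against muscle, 16 were higher and 1 (Col7a1) lower in osteosarcoma, with 18.5% and 14.5% of all genes, a median of 1.41 and an all-gene median of 0.06. Leiomyosarcoma had 12 collagen genes higher and 0 lower than muscle, with 20.1% and 15.1% of all genes, and 18 higher and 0 lower than bone marrow, with 15.2% and 12.7%. The medians of the 30 genes were 1.44 and 2.37, and those of all genes 0.08 and 0.002.

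These comparisons share samples, so their counts do not add to each other. Col2a1, Col5a2, Col8a2, Col9a3, Col13a1 and Col27a1 were detected on no normal array and passed the detection filter only through tumours, so the counts above favour higher values in tumours. At an unadjusted limma p under 0.05, the counts of lower collagen genes that were 0 became 1 for osteosarcoma against bone marrow, 0 for leiomyosarcoma against muscle and 0 for leiomyosarcoma against bone marrow, and 1 was higher in bone marrow than in muscle. With the background set as a block, the counts for osteosarcoma fell to 14 higher against bone marrow and to 8 higher and 1 lower against muscle, and those for leiomyosarcoma were 11 against muscle and 15 against bone marrow.

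Between the tumours 6 collagen genes were higher in osteosarcoma (Col1a1, Col1a2, Col2a1, Col5a2, Col22a1 and Col24a1) and 3 were lower (Col7a1, Col18a1 and Col27a1), where 3.31% of all genes were called higher and 4.34% lower. Those are 20% and 10% of the 30 genes, and the median difference over the 30 genes was −0.13. Within the 6 arrays of high background, 5 of the 6 higher and 1 of the 3 lower genes were called. Between the normal tissues, 0 collagen genes were higher and 12 lower in bone marrow than in muscle, against 20.3% and 19.7% of all genes, with a median of −1.56.

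**Figure D1:**
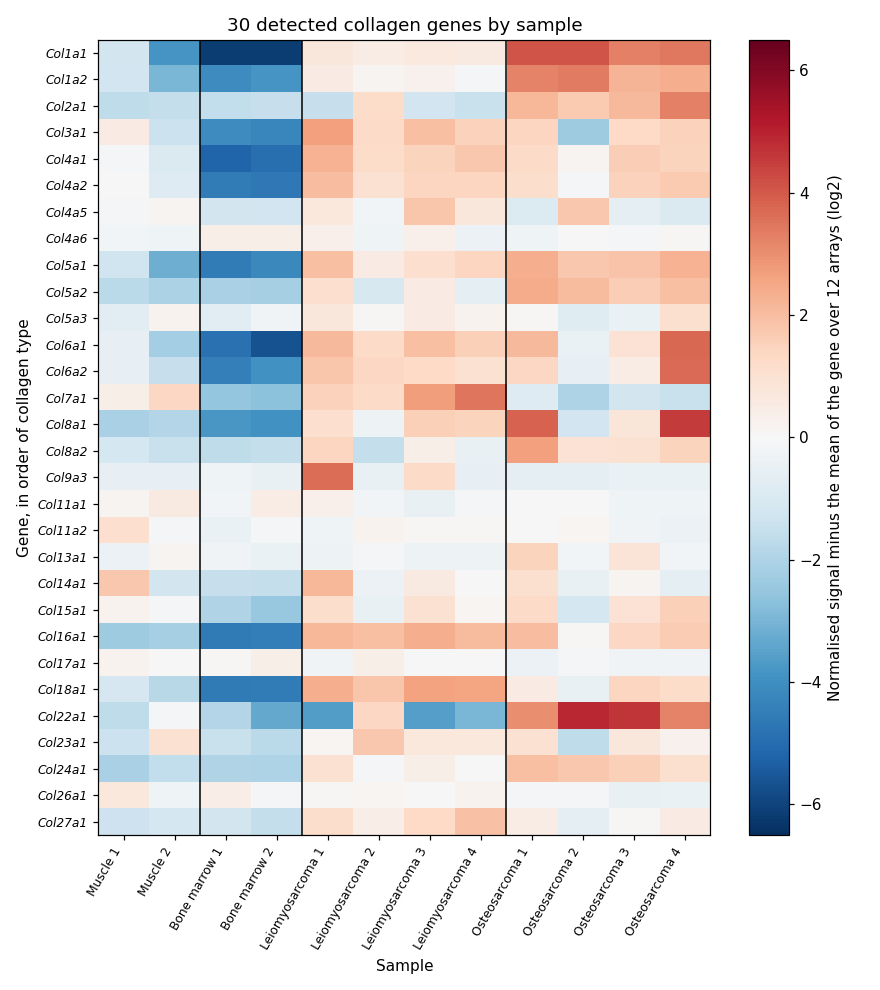
Level of each of the 30 tested collagen genes (rows) in each of the 12 samples (columns, by group and replicate), as the log2 difference from that gene's mean over the 12 samples. Col4a1 and Col4a2 share a pattern that is low in bone marrow and high in both tumours, while Col22a1 stands high in the 4 osteosarcomas and in leiomyosarcoma 2.

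Type 1 collagen, the main fibre of bone, was higher in osteosarcoma than in every other group. Col1a1, which encodes its α1 chain, read 9.58 and 6.94 in the muscle samples, 4.62 and 4.61 in the marrow samples, 11.52, 11.26, 11.39 and 11.36 in the leiomyosarcomas and 14.87, 14.88, 14.04 and 14.19 in the osteosarcomas. The 4 osteosarcomas lay above all other samples, the leiomyosarcomas came next with a spread of under 0.3, and bone marrow was not detected. Col1a2, which encodes the α2 chain, read 7.84 and 6.15 in the muscle samples, 5.03 and 5.27 in the marrow samples, 9.64, 9.28, 9.36 and 9.05 in the leiomyosarcomas and 12.30, 12.48, 11.29 and 11.48 in the osteosarcomas. The groups were in the same order, without overlap between the tumours.

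Col1a1 was higher in osteosarcoma than in leiomyosarcoma by 3.11 ± 0.44 (SE, adjusted p = 0.00117) and Col1a2 by 2.56 ± 0.36 (SE, adjusted p = 0.00119), and both were called in the 6 high-background arrays alone, with 3.12 and 2.68. Against bone marrow they were at least 519-fold (adjusted p = 8.12e-08) and at least 85.3-fold (adjusted p = 4.21e-07) higher. Leiomyosarcoma exceeded muscle by 3.13 ± 0.54 (SE, adjusted p = 0.000612) for Col1a1 and 2.34 ± 0.45 (SE, adjusted p = 0.00121) for Col1a2. These differences from muscle depend on which muscle sample is used, since muscle 1 was far above muscle 2 for both chains. Without muscle 1 they were 4.45 and 3.19, and without muscle 2 1.80 and 1.49.

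For osteosarcoma minus muscle the differences were 6.24 ± 0.54 (SE, adjusted p = 5.74e-06) and 4.89 ± 0.45 (SE, adjusted p = 8.53e-06). Leaving out muscle 1 gave 7.56 and 5.74, and leaving out muscle 2 gave 4.91 and 4.04. Within osteosarcoma, samples 1 and 2 were higher than 3 and 4 for both chains, with r = 0.99 between the chains over the 12 arrays, which share group and processing. Within the 4 leiomyosarcomas and the 4 osteosarcomas r was 0.71 and 0.99.

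Col2a1, the chain of cartilage fibres, read 4.52 and 4.61 in the muscle samples, 4.58 and 4.66 in the marrow samples, 4.70, 7.38, 4.94 and 4.73 in the leiomyosarcomas and 8.34, 7.88, 8.29 and 9.47 in the osteosarcomas. It was detected on all 4 osteosarcoma arrays, on 1 leiomyosarcoma array (sample 2) and on no normal array. The difference between the tumours was 3.06 ± 0.54 (SE, adjusted p = 0.00431). Without leiomyosarcoma 2 the fitted value was 3.71, which is no measured size, since the remaining leiomyosarcomas were undetected. Osteosarcoma was at least 8.12-fold (adjusted p = 0.000724) above bone marrow and at least 7.38-fold (adjusted p = 0.000596) above muscle, and 2 other detected probes of the gene gave 1.64 and 2.21 between the tumours. With the background block the tumours differed by 3.66, and the calls against bone marrow (adjusted p = 0.00362) and muscle (adjusted p = 0.00396) held.

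Of the cartilage markers, Comp was the 1 called higher in osteosarcoma than in leiomyosarcoma, as were 3.31% of all genes. Of 8 listed chondrocyte markers 3 were tested (Sox9, Acan and Comp) and Matn1, Matn3, Cnmd, Hapln1 and Snorc did not pass detection. Sox9, the transcription factor that turns on Col2a1 in cartilage, read 11.40, 12.34, 12.20 and 11.57 in leiomyosarcoma and 10.49, 12.32, 10.40 and 9.35 in osteosarcoma, ranges that overlapped. Comp, a cartilage and tendon matrix protein, read 4.87, 4.95, 4.97 and 4.74 in leiomyosarcoma and 9.35, 6.44, 8.20 and 8.46 in osteosarcoma, without overlap. Acan, the large cartilage proteoglycan, read 4.67, 6.69, 4.67 and 4.80 in leiomyosarcoma and 8.28, 4.98, 5.34 and 5.55 in osteosarcoma. Comp differed by 3.23 ± 0.47 (SE, adjusted p = 0.00134), and was not called within the high-background arrays (adjusted p = 0.0556). Acan was detected in 1 of 4 leiomyosarcomas, sample 2, which was also the 1 with Col2a1. Of further cartilage collagens, Col9a3 and Col10a1 were detected in no osteosarcoma. A probe of Col11a1 was detected on 4 of 4 osteosarcoma and 2 of 4 leiomyosarcoma arrays, and a probe of Col11a2 on 2 of 4 and 3 of 4.

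Col3a1, the fibre of vessel walls, skin and healing tissue, read 9.37 and 7.42 in the muscle samples, 4.73 and 4.56 in the marrow samples, 11.51, 10.05, 10.75 and 10.30 in the leiomyosarcomas and 10.21, 6.49, 10.10 and 10.31 in the osteosarcomas. Osteosarcoma 2 was below both muscle samples and far below the other 3 osteosarcomas. Compared with bone marrow, leiomyosarcoma was at least 36.2-fold (adjusted p = 0.000405) and osteosarcoma at least 13.9-fold (adjusted p = 0.00240) higher, the latter at least 26.5-fold without osteosarcoma 2. The other detected Col3a1 probe gave fitted differences of 3.69 and 1.69 there. The tumours differed by −1.38 ± 0.77 (SE, adjusted p = 0.288), which was not called. Leiomyosarcoma minus muscle was 2.25 ± 0.95 (SE, adjusted p = 0.0704), not called, but called without osteosarcoma 2 (adjusted p = 0.00324), which enters that fit only through the shared spread. Osteosarcoma minus muscle was 0.88 ± 0.95 (SE, adjusted p = 0.480), and 1.81 and called without osteosarcoma 2. The 6 fibroblast markers summed to 13.2, 14.2, 11.8 and 12.9 in osteosarcomas 1 to 4, highest in sample 2, and their part in this was not tested.

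Type 5 collagen starts fibril assembly and sets fibril width. Col5a1 read 10.48 and 8.61 in the muscle samples, 7.21 and 7.59 in the marrow samples, 13.72, 12.29, 12.85 and 13.14 in the leiomyosarcomas and 14.11, 13.48, 13.60 and 14.01 in the osteosarcomas. Both tumours lay above both normal tissues, and the tumours overlapped, with 0.80 ± 0.39 (SE, adjusted p = 0.216) between them. Osteosarcoma minus bone marrow was 6.40 ± 0.48 (SE, adjusted p = 1.07e-06) and leiomyosarcoma minus muscle 3.45 ± 0.48 (SE, adjusted p = 0.000131), the latter 4.39 without muscle 1 and 2.52 without muscle 2.

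Col5a2 read 4.81 and 4.50 in the muscle samples, 4.47 and 4.42 in the marrow samples, 7.66, 5.52, 7.12 and 5.95 in the leiomyosarcomas and 8.98, 8.63, 8.16 and 8.50 in the osteosarcomas. It was undetected in normal tissue, and every osteosarcoma was above every leiomyosarcoma. Col5a2 was higher in osteosarcoma than in leiomyosarcoma by 2.01 ± 0.40 (SE, adjusted p = 0.00864), and osteosarcoma was at least 8.53-fold (adjusted p = 4.60e-05) above bone marrow. Its 2 other detected probes gave only 0.15 and 0.98 between the tumours. Their fitted differences were 0.85 and 1.38 for osteosarcoma minus bone marrow and 0.24 and 0.47 for leiomyosarcoma minus muscle. The sizes thus rest on the brightest probe. Leiomyosarcoma was at least 1.93-fold (adjusted p = 0.00781) above muscle, and leaving out muscle 2 ended the call. That bound falls short of the difference of 1 that a call needs, which was reached with fitted values below detection (1.91).

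Col5a3, the third type 5 chain, stayed near the detection limit. It read 4.95 and 5.92 in the muscle samples, 4.94 and 5.44 in the marrow samples, 6.38, 5.75, 6.22 and 5.88 in the leiomyosarcomas and 5.74, 4.90, 5.24 and 6.69 in the osteosarcomas, and limma called it in 0 of the 6 comparisons and gave an unadjusted p under 0.05 in 0.

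Type 11 chains partner type 2 in cartilage fibrils. Col11a1 read 5.62 and 6.01 in the muscle samples, 5.23 and 5.91 in the marrow samples, 5.76, 5.25, 4.94 and 5.35 in the leiomyosarcomas and 5.41, 5.40, 5.16 and 5.13 in the osteosarcomas. Col11a2 read 6.53 and 5.31 in the muscle samples, 4.97 and 5.32 in the marrow samples, 5.12, 5.64, 5.49 and 5.47 in the leiomyosarcomas and 5.42, 5.52, 5.17 and 5.03 in the osteosarcomas. Neither was called in any comparison, with −0.05 ± 0.22 (SE, adjusted p = 0.916) and −0.14 ± 0.25 (SE, adjusted p = 0.782) between the tumours, and 0 of 6 comparisons of either gene had an unadjusted p under 0.05. Of 2 other detected Col11a1 probes, 1 gave a fitted 0.25 and 1 a fitted 1.43 between the tumours. The latter read 6.12, 6.48, 6.80 and 5.08 in osteosarcoma, detected on 3 arrays, and was detected on 0 leiomyosarcoma arrays. In muscle that probe read 5.17 and 6.15, detected on 1 array. Col11a2 was called lower in both tumours and in bone marrow only when muscle 2 was left out, which leaves muscle 1 (−1.24 in osteosarcoma, −1.10 in leiomyosarcoma and at least 2.07-fold in bone marrow).

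**Figure D2:**
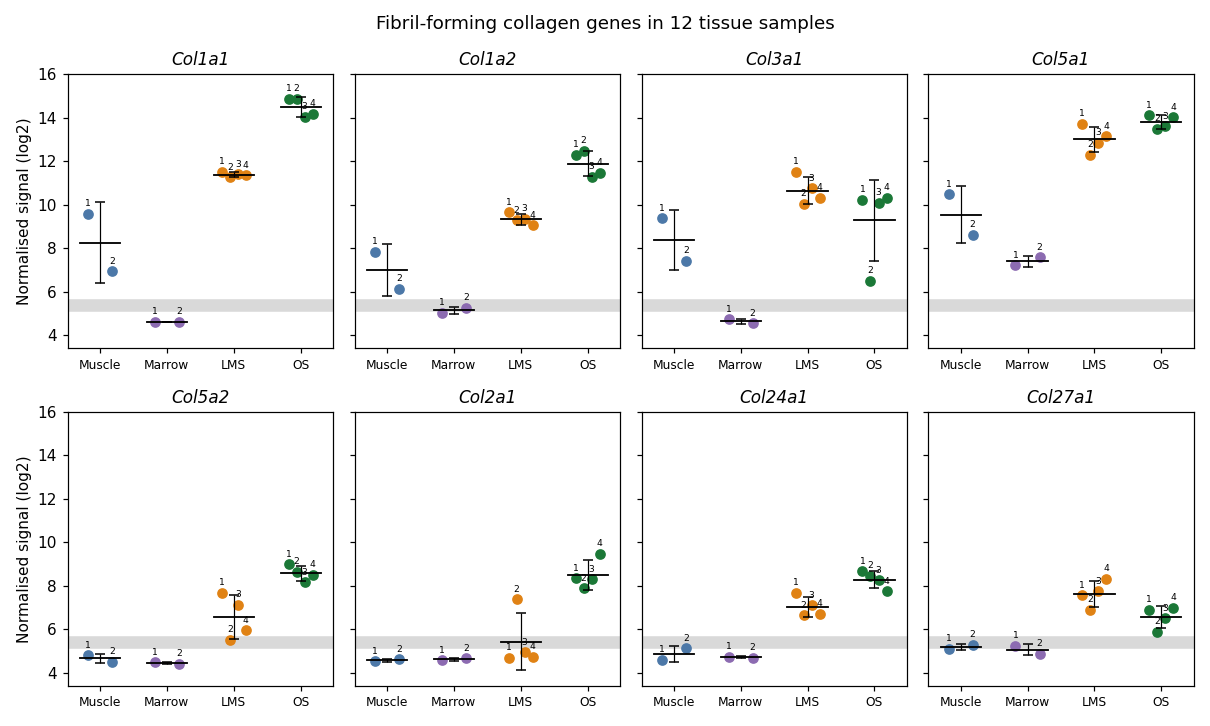
Normalised signal (log2, vertical axis) of 8 fibril-forming collagen genes in muscle, bone marrow, leiomyosarcoma (LMS) and osteosarcoma (OS). Points are samples numbered by replicate, bars are the mean ± SD (n = 2, 2, 4 and 4), and the grey band spans the lowest detected signal of the 12 arrays. Col1a1 in osteosarcoma sits at 14.04 to 14.88, above all other samples, and Col3a1 has 1 osteosarcoma at 6.49.

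Types 24 and 27 are the 2 late-described fibrillar collagens, the first known from the bone of developing mice and the second from cartilage. Col24a1 read 4.59 and 5.12 in the muscle samples, 4.74 and 4.69 in the marrow samples, 7.66, 6.63, 7.10 and 6.72 in the leiomyosarcomas and 8.67, 8.45, 8.25 and 7.75 in the osteosarcomas. Every osteosarcoma was above every leiomyosarcoma, if by little for the lowest. Col24a1 was higher in osteosarcoma than in leiomyosarcoma by 1.25 ± 0.27 (SE, adjusted p = 0.0115), and osteosarcoma was at least 6.98-fold (adjusted p = 5.42e-06) above bone marrow. Within the high-background arrays the tumour difference was 1.37 with adjusted p = 0.0506, which is not called. Its 2 other detected probes gave 0.17 and 1.02, and the mean of the detected probes 0.81, under the limit of 1 for a call. For osteosarcoma minus bone marrow those 2 probes gave fitted differences of 0.35 and 2.65.

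Col27a1 read 5.09 and 5.28 in the muscle samples, 5.23 and 4.88 in the marrow samples, 7.56, 6.88, 7.74 and 8.32 in the leiomyosarcomas and 6.90, 5.87, 6.51 and 6.99 in the osteosarcomas. Leiomyosarcoma was the higher tumour, with −1.06 ± 0.32 (SE, adjusted p = 0.0494) for osteosarcoma minus leiomyosarcoma, and the groups overlapped. That call ended when any single array was left out other than leiomyosarcoma 2, with differences of −1.20 to −0.83. Leiomyosarcoma was at least 4.04-fold (adjusted p = 0.000336) above muscle. Osteosarcoma was at least 1.94-fold (adjusted p = 0.0126) above muscle and at least 2.13-fold (adjusted p = 0.00924) above bone marrow, calls that ended without muscle 1 (adjusted p = 0.0789) and without bone marrow 2 (adjusted p = 0.0949). Both also ended with the background block (adjusted p = 0.474 and adjusted p = 0.405). The bound against muscle falls short of the difference of 1 that a call needs, which was reached with fitted values below detection (1.38). The 2 other detected Col27a1 probes gave fitted differences of 0.66 and 0.72 for leiomyosarcoma minus muscle. For osteosarcoma they gave 0.18 and 0.32 against muscle and 0.03 and 0.45 against bone marrow.

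Basement membrane collagen was high in both tumours and low in bone marrow. Col4a1, which with Col4a2 makes the ubiquitous type 4 trimer, read 10.64 and 9.76 in the muscle samples, 5.51 and 5.83 in the marrow samples, 12.98, 11.91, 12.17 and 12.47 in the leiomyosarcomas and 11.96, 10.92, 12.30 and 12.18 in the osteosarcomas. Col4a2 read 9.40 and 8.53 in the muscle samples, 4.83 and 4.69 in the marrow samples, 11.36, 10.33, 10.75 and 10.75 in the leiomyosarcomas and 10.48, 9.26, 10.83 and 11.06 in the osteosarcomas. The pair, whose promoter windows are printed above, moved together sample by sample, with osteosarcoma 2 the lowest osteosarcoma and leiomyosarcoma 1 the highest leiomyosarcoma for both. Their correlation was r = 0.997 over the 12 arrays and 0.964 and 0.978 within the 4 leiomyosarcomas and the 4 osteosarcomas, given as a description, since the arrays share processing and groups.

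Osteosarcoma minus bone marrow was 6.17 ± 0.41 (SE, adjusted p = 4.62e-07) for Col4a1, and Col4a2 was at least 30.5-fold (adjusted p = 1.98e-06) higher. Leiomyosarcoma minus muscle was 2.18 ± 0.41 (SE, adjusted p = 0.00116) and 1.83 ± 0.46 (SE, adjusted p = 0.00629), and that of Col4a2 ended without muscle 2 (adjusted p = 0.0827). Between the tumours neither was called, with −0.54 ± 0.34 (SE, adjusted p = 0.343) and −0.39 ± 0.37 (SE, adjusted p = 0.566). Against muscle, osteosarcoma was higher by 1.64 ± 0.41 (SE, adjusted p = 0.00724) and 1.44 ± 0.46 (SE, adjusted p = 0.0230). Both of these calls ended without muscle 2 (adjusted p = 0.0969 and adjusted p = 0.206) and with the background block (adjusted p = 0.0794 and adjusted p = 0.159), and that of Col4a2 also without osteosarcoma 3 (adjusted p = 0.0519) or 4 (adjusted p = 0.0506). Endothelial cells make this collagen, and the 8 endothelium markers summed to 11.9, 10.9, 11.9 and 12.5 in osteosarcomas 1 to 4, 11.4 to 12.1 in leiomyosarcoma, 11.1 to 11.4 in muscle and 9.03 to 9.12 in bone marrow. They also were lowest in osteosarcoma 2, and their part in the result was not tested.

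The minor chains Col4a5 and Col4a6, which assemble in the kidney and in smooth muscle basement membranes, were not called between the tumours. Col4a5 read 5.72 and 6.01 in the muscle samples, 4.63 and 4.57 in the marrow samples, 6.51, 5.67, 7.64 and 6.55 in the leiomyosarcomas and 4.93, 7.59, 5.24 and 4.90 in the osteosarcomas, with osteosarcoma 2 standing apart. Col4a5 in leiomyosarcoma was at least 2.17-fold (adjusted p = 0.0408) above bone marrow, a call that ended without 7 of the 12 arrays left out singly (both muscles, both bone marrows and leiomyosarcomas 1, 3 and 4) and with the background block. The tumours differed by −0.93 ± 0.56 (SE, adjusted p = 0.330). Without osteosarcoma 2, the 1 osteosarcoma in which Col4a5 was detected, the fitted value was −1.57 and called, which is no measured size. Col4a6 read 4.87 and 4.75 in the muscle samples, 5.44 and 5.45 in the marrow samples, 5.36, 4.78, 5.36 and 4.68 in the leiomyosarcomas and 4.74, 5.06, 4.91 and 5.13 in the osteosarcomas, within the range of the detection limit throughout.

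Type 8 chains form a hexagonal network under vascular and corneal endothelium. Col8a1 read 6.55 and 6.75 in the muscle samples, 4.86 and 4.71 in the marrow samples, 9.74, 8.31, 10.21 and 10.07 in the leiomyosarcomas and 12.49, 7.41, 9.45 and 13.17 in the osteosarcomas. The 4 osteosarcomas spanned over 5 log2 units, samples 1 and 4 far above and sample 2 below every leiomyosarcoma. Osteosarcoma was at least 35.7-fold (adjusted p = 0.00329) above bone marrow, and at least 23.2, 75.1 and 19.8-fold without osteosarcoma 1, 2 or 4. With the background block that call ended (adjusted p = 0.126), and the difference between tumours was 1.05 ± 1.02 (SE, adjusted p = 0.577). Samples 1 and 4 also had the highest osteoclast marker sums, 15.3, 12.02, 12.4 and 15.6 in samples 1 to 4, and the part of those bone-resorbing cells in the result was not tested.

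Col8a1 in osteosarcoma minus muscle was 3.98 ± 1.25 (SE, adjusted p = 0.0227). The call ended without muscle 1 (adjusted p = 0.103), muscle 2 (adjusted p = 0.0895) or osteosarcoma 1 (adjusted p = 0.0501) and with the block. It was 5.05 without osteosarcoma 2 and 3.13 without osteosarcoma 4. Leiomyosarcoma minus muscle was 2.93 ± 1.25 (SE, adjusted p = 0.0751), called only without osteosarcoma 2 or 4 and in the low-background arrays. Leiomyosarcoma was at least 17.3-fold (adjusted p = 0.0106) above bone marrow, and this ended without either marrow sample and with the block (adjusted p = 0.0542).

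Col8a2, the partner chain, read 5.42 and 5.13 in the muscle samples, 4.91 and 5.0001 in the marrow samples, 7.95, 5.03, 6.96 and 6.08 in the leiomyosarcomas and 9.26, 7.49, 7.58 and 8.01 in the osteosarcomas. Its highest osteosarcoma was also sample 1, while sample 4 was not set apart as for Col8a1. Osteosarcoma was at least 6.11-fold (adjusted p = 0.00341) above bone marrow and at least 5.56-fold (adjusted p = 0.00548) above muscle, both ending with the block (adjusted p = 0.0742 and adjusted p = 0.0912). The tumours differed by 1.58 ± 0.55 (SE, adjusted p = 0.0881), and 2.06 and called without leiomyosarcoma 1. Leiomyosarcoma was at least 1.86-fold (adjusted p = 0.158) above muscle, called only without leiomyosarcoma 2 (at least 2.61-fold), the lowest of its group.

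Type 6 collagen forms beaded filaments around cells, with a known role in muscle. Col6a1 read 10.50 and 8.85 in the muscle samples, 6.18 and 5.41 in the marrow samples, 13.17, 12.28, 13.02 and 12.62 in the leiomyosarcomas and 13.15, 10.64, 11.996 and 14.80 in the osteosarcomas. The osteosarcomas ran from below every leiomyosarcoma (sample 2) to above all of them (sample 4), so the mean difference between tumours, −0.12 ± 0.71 (SE, adjusted p = 0.940), hides a wide range. Col6a2 ranged over 7.95 to 8.93 in the muscle samples, 5.05 to 5.53 in the marrow samples, 10.47 to 11.26 in the leiomyosarcomas and 8.92 to 13.15 in the osteosarcomas, with the same lowest and highest osteosarcomas, and the tumours differed by −0.11 ± 0.69 (SE, adjusted p = 0.946).

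Osteosarcoma minus bone marrow was 6.86 ± 0.87 (SE, adjusted p = 7.71e-05) for Col6a1 and 5.43 ± 0.84 (SE, adjusted p = 0.000344) for Col6a2. Without osteosarcoma 2 the 2 values were 7.52 and 6.03, and without osteosarcoma 4 6.14 and 4.62. For osteosarcoma minus bone marrow the 2 other detected Col6a1 probes gave 1.33 and 6.83. The other detected Col6a2 probe gave 1.55, so the sizes depend on the probe. Leiomyosarcoma exceeded muscle by 3.10 ± 0.87 (SE, adjusted p = 0.0125) and 2.39 ± 0.84 (SE, adjusted p = 0.0359). The Col6a1 call ended without muscle 2 (adjusted p = 0.137) and was 3.92 without muscle 1. The Col6a2 call ended without either muscle or leiomyosarcoma 1, 2 or 3 and with the block. Against muscle, osteosarcoma was higher by 2.97 ± 0.87 (SE, adjusted p = 0.0163) and 2.28 ± 0.84 (SE, adjusted p = 0.0457). For Col6a1 this ended without muscle 2 (adjusted p = 0.165) and with the block (adjusted p = 0.169), and was 3.80, 3.64 and 2.26 without muscle 1, osteosarcoma 2 and osteosarcoma 4. For Col6a2 it ended with the block (adjusted p = 0.181) and without any single array other than osteosarcomas 2, 3 and 4, and was 2.88 and 1.47 without osteosarcomas 2 and 4.

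Col7a1, the anchoring fibril collagen that ties epithelium to dermis, went the other way from type 1 between the tumours. It read 7.82 and 8.77 in the muscle samples, 4.89 and 4.77 in the marrow samples, 8.95, 8.67, 10.14 and 10.88 in the leiomyosarcomas and 6.58, 5.43, 6.25 and 5.98 in the osteosarcomas. Every osteosarcoma was below every leiomyosarcoma and below both muscles. Osteosarcoma minus leiomyosarcoma was −3.60 ± 0.45 (SE, adjusted p = 0.000546), and −4.45 within the high-background arrays, where leiomyosarcomas 3 and 4 are the higher ones. The rise of leiomyosarcoma over bone marrow was at least 18.2-fold (adjusted p = 3.61e-05). Osteosarcoma minus muscle was −2.24 ± 0.55 (SE, adjusted p = 0.00649), which ended without muscle 2 (−1.76, adjusted p = 0.0805) and was −3.94 with the block. Leiomyosarcoma minus muscle, 1.36 ± 0.55 (SE, adjusted p = 0.0630), was called only without leiomyosarcoma 1 or 2 (1.60 and 1.69) or with the mean of both detected probes. The gene's other detected probe gave −0.88 between the tumours. Its fitted differences were 0.90 for leiomyosarcoma minus bone marrow and 0.06 for osteosarcoma minus muscle. Col7a1 was also the 1 collagen gene that differed between leiomyosarcomas 3 and 4 and leiomyosarcomas 1 and 2 at an unadjusted p under 0.05, by 1.70, and its adjusted p there was 0.472. Over all genes 605 of 11754 did so, a larger share than 1 of 30.

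Types 15 and 18 are the multiplexins of basement membranes, and type 18 yields the fragment endostatin. Col18a1 read 8.43 and 7.75 in the muscle samples, 4.95 and 4.98 in the marrow samples, 11.90, 11.34, 12.15 and 12.11 in the leiomyosarcomas and 10.04, 9.04, 10.93 and 10.70 in the osteosarcomas. Leiomyosarcoma was highest, with no overlap with any other group. Osteosarcoma minus leiomyosarcoma was −1.70 ± 0.37 (SE, adjusted p = 0.0129), and −1.95 with adjusted p = 0.0862 in the high-background arrays, which is not called. Leiomyosarcoma minus muscle was 3.78 ± 0.45 (SE, adjusted p = 4.70e-05), and both tumours were above bone marrow, by at least 84.6-fold (adjusted p = 4.02e-07) and at least 26.1-fold (adjusted p = 3.51e-06). Osteosarcoma minus muscle, 2.09 ± 0.45 (SE, adjusted p = 0.00302), ended with the background block (adjusted p = 0.132). The 2 other detected Col18a1 probes gave smaller fitted differences. They were 0.15 and 1.30 for osteosarcoma and 1.05 and 2.70 for leiomyosarcoma, each minus bone marrow. Minus muscle they were 0.06 and 1.15 for osteosarcoma and 0.97 and 2.55 for leiomyosarcoma, and between the tumours −1.40 and −0.91.

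Col15a1 read 7.27 and 6.90 in the muscle samples, 5.11 and 4.59 in the marrow samples, 8.19, 6.56, 8.02 and 7.19 in the leiomyosarcomas and 8.29, 5.93, 7.96 and 8.58 in the osteosarcomas. Muscle lay within the range of both tumours, and osteosarcoma 2 and leiomyosarcoma 2 were the lowest of their groups. Above bone marrow lay leiomyosarcoma, by at least 4.04-fold (adjusted p = 0.00788), and osteosarcoma, by at least 4.65-fold (adjusted p = 0.00510). Both calls ended without bone marrow 2 (adjusted p = 0.0823 and adjusted p = 0.0620), the second also with the block, and it was at least 6.98-fold without osteosarcoma 2. Between the tumours the difference was 0.20 ± 0.53 (SE, adjusted p = 0.859). For osteosarcoma minus muscle it was 0.60 ± 0.65 (SE, adjusted p = 0.484), called only without osteosarcoma 2 (1.19).

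The fibril-associated collagens bind the surface of fibrils. Col22a1, known from the junction of muscle and tendon, read 6.59 and 8.16 in the muscle samples, 6.36 and 4.93 in the marrow samples, 4.64, 9.61, 4.65 and 5.27 in the leiomyosarcomas and 11.27, 13.17, 12.89 and 11.50 in the osteosarcomas. All 4 osteosarcomas were above every other sample, and leiomyosarcoma 2 was the 1 leiomyosarcoma clearly above the detection limit. Osteosarcoma exceeded leiomyosarcoma by 6.17 ± 0.99 (SE, adjusted p = 0.00234), the largest difference between tumours among the 30 collagen genes, and by 7.35 without leiomyosarcoma 2. In the high-background arrays, which hold no such leiomyosarcoma, it was 7.25. Osteosarcoma minus bone marrow was 6.57 ± 1.21 (SE, adjusted p = 0.00118), and 5.85 without bone marrow 2. Without bone marrow 1 the fitted value was 7.28, which is no measured size, since bone marrow 2 was undetected.

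Osteosarcoma minus muscle was 4.84 ± 1.21 (SE, adjusted p = 0.00680) for Col22a1, which ended without muscle 1 (4.05, adjusted p = 0.0727) and was 5.62 without muscle 2. With the block the differences from bone marrow and muscle were 8.73 and 6.999. These shifts come from the leiomyosarcomas, where samples 3 and 4 differed from 1 and 2 by −2.16, with leiomyosarcoma 2 at 9.61. They are no measure of an array effect in osteosarcoma. For leiomyosarcoma minus muscle it was −1.33 ± 1.21 (SE, adjusted p = 0.391), called lower only without leiomyosarcoma 2 (−2.52). A single probe carries these values, since the gene's other probe was detected only in osteosarcoma 2. Scx, a tendon transcription factor, read 4.53, 8.82, 6.40 and 5.53 in leiomyosarcomas 1 to 4, highest in sample 2, 6.92, 8.29, 7.04 and 7.27 in osteosarcoma and 5.88 and 10.40 in muscle, and its part in the result was not tested.

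Col16a1 read 7.87 and 7.98 in the muscle samples, 5.56 and 5.68 in the marrow samples, 12.32, 12.09, 12.55 and 12.21 in the leiomyosarcomas and 12.15, 10.24, 11.49 and 11.83 in the osteosarcomas. Both tumours were above both normal tissues without overlap, and leiomyosarcoma varied by under 0.5. Col16a1 in leiomyosarcoma exceeded muscle by 4.37 ± 0.41 (SE, adjusted p = 9.00e-06) and in osteosarcoma exceeded bone marrow by 5.81 ± 0.41 (SE, adjusted p = 6.79e-07). Against muscle, osteosarcoma was higher by 3.498 ± 0.41 (SE, adjusted p = 4.79e-05), and the tumours differed by −0.87 ± 0.33 (SE, adjusted p = 0.119), which was not called.

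Col14a1 read 7.94 and 5.01 in the muscle samples, 4.69 and 4.62 in the marrow samples, 8.32, 5.81, 6.76 and 6.22 in the leiomyosarcomas and 7.20, 5.68, 6.35 and 5.60 in the osteosarcomas. Muscle 1 was near the highest tumours and muscle 2 was below detection, so the muscle pair alone spanned most of the range. Limma called it in 0 of the 6 comparisons, with an unadjusted p under 0.05 in 1, and the difference between tumours was −0.57 ± 0.65 (SE, adjusted p = 0.646). Leiomyosarcoma was at least 2.47-fold (adjusted p = 0.0574) above bone marrow, not called, but called without muscle 1, muscle 2 or leiomyosarcoma 2 and under a stricter detection filter. Bone marrow was called lower than muscle without muscle 2, by at least 5.54-fold.

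Col9a3, a chain of the cartilage collagen type 9, read 4.52 and 4.52 in the muscle samples, 4.81 and 4.57 in the marrow samples, 8.72, 4.57, 6.29 and 4.55 in the leiomyosarcomas and 4.49, 4.51, 4.62 and 4.66 in the osteosarcomas. This probe was detected in leiomyosarcomas 1 and 3, another probe of the gene on 1 further leiomyosarcoma array, and none in osteosarcoma. The mean of leiomyosarcoma was at least 1.75-fold (adjusted p = 0.221) above osteosarcoma, which was not called, and without leiomyosarcoma 1 it no longer exceeded the limit.

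Types 13, 17 and 23 have a membrane-spanning segment. Col13a1 read 4.47 and 5.02 in the muscle samples, 4.61 and 4.42 in the marrow samples, 4.48, 4.69, 4.51 and 4.52 in the leiomyosarcomas and 6.29, 4.65, 5.69 and 4.64 in the osteosarcomas, above the detection limit in osteosarcomas 1 and 3 only. Col17a1, of epithelial hemidesmosomes, read 5.49 and 5.25 in the muscle samples, 5.34 and 5.64 in the marrow samples, 5.01, 5.63, 5.28 and 5.23 in the leiomyosarcomas and 4.87, 5.11, 5.03 and 5.02 in the osteosarcomas, and limma called it in 0 of the 6 comparisons (1 with an unadjusted p under 0.05). Col23a1 read 4.93 and 7.30 in the muscle samples, 4.87 and 4.58 in the marrow samples, 6.45, 8.10, 7.03 and 7.03 in the leiomyosarcomas and 7.32, 4.69, 7.10 and 6.62 in the osteosarcomas. Its lowest osteosarcoma was sample 2, and the muscle pair was split. Col23a1 in leiomyosarcoma was at least 3.20-fold (adjusted p = 0.0259) above bone marrow, a call that ended without bone marrow 1 (adjusted p = 0.0999), bone marrow 2 (adjusted p = 0.148) or leiomyosarcoma 2 (adjusted p = 0.0577) and with the block (adjusted p = 0.0601). Osteosarcoma was at least 1.94-fold (adjusted p = 0.0996) above bone marrow, called only without osteosarcoma 2 (at least 2.90-fold).

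Col26a1, a short collagen first described in testis and ovary, read 6.05 and 5.10 in the muscle samples, 5.83 and 5.28 in the marrow samples, 5.47, 5.50, 5.35 and 5.59 in the leiomyosarcomas and 5.31, 5.27, 4.88 and 4.94 in the osteosarcomas. The values of this probe stayed about the detection limit. Another probe, detected on 2 arrays, read 8.37 in leiomyosarcoma 2 and 6.41 in osteosarcoma 3. On the first probe limma called the gene in 0 of the 6 comparisons, 0 of which had an unadjusted p under 0.05.

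**Figure D3:**
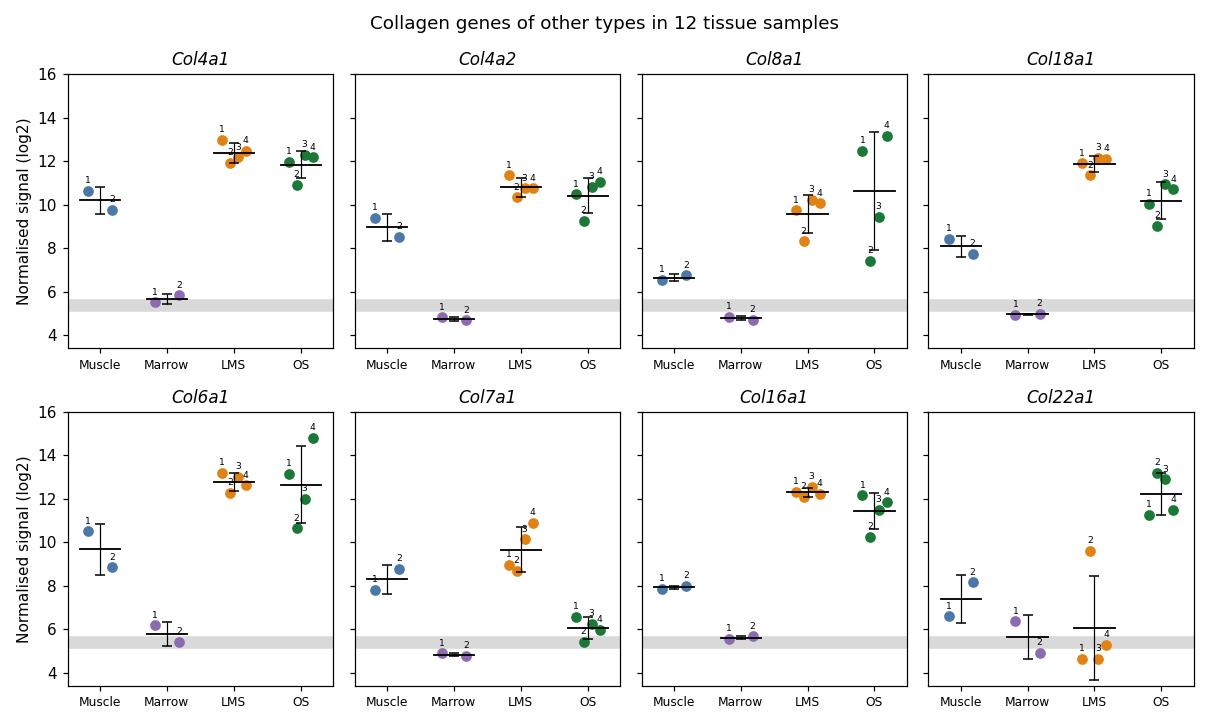
Normalised signal (log2, vertical axis) of 8 collagen genes of other types in muscle, bone marrow, leiomyosarcoma (LMS) and osteosarcoma (OS). Points are samples numbered by replicate, bars are the mean ± SD (n = 2, 2, 4 and 4), and the grey band spans the lowest detected signal of the 12 arrays. Col7a1 is lower in osteosarcoma (5.43 to 6.58) than in leiomyosarcoma (8.67 to 10.88), Col22a1 is higher, and Col8a1 spans 7.41 to 13.17 in osteosarcoma.

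In bone marrow 20 of the 30 genes were detected on neither array, and 4 (Col4a1, Col5a1, Col6a1 and Col16a1) on both, which were also the 4 genes detected on all 12 arrays. Of all probes on the array, 33.8% and 32.6% were detected on bone marrow 1 and 2. The share over all tested genes is not given here, so these counts are not read as a trait of collagens. The 12 genes lower in bone marrow than in muscle were Col1a1, Col1a2, Col3a1, Col4a1, Col4a2, Col5a1, Col6a1, Col6a2, Col7a1, Col15a1, Col16a1 and Col18a1. Col4a1 differed by −4.53 ± 0.48 (SE, adjusted p = 1.30e-05), Col16a1 by −2.31 ± 0.47 (SE, adjusted p = 0.00174) and Col7a1 was at least 7.07-fold (adjusted p = 0.000863) lower. Col4a2 was at least 11.2-fold (adjusted p = 4.96e-05) lower, and Col18a1 at least 6.14-fold (adjusted p = 0.000429). Other detected probes gave fitted differences, bone marrow minus muscle, of 0.04 for Col7a1, 0.10 for Col6a2 and −0.15 and −0.09 for Col18a1. They gave −3.98 and −0.06 for Col6a1 and −1.52 for Col3a1. For Col1a1 the bound was at least 6.88-fold (adjusted p = 0.000501), or at least 2.76-fold without muscle 1 and at least 17.2-fold without muscle 2. The calls of Col1a2, Col3a1, Col5a1, Col6a1, Col6a2 and Col15a1 ended without muscle 1. They also ended without bone marrow 1 (Col1a2 and Col5a1), bone marrow 2 (Col6a1) or either one (Col3a1, Col6a2 and Col15a1), and that of Col15a1 without muscle 2. Col1a2, Col3a1 and Col15a1, undetected in bone marrow, were at least 1.59-fold, 3.86-fold and 2.69-fold lower there without muscle 1, against at least 2.87-fold (adjusted p = 0.0113), at least 7.58-fold (adjusted p = 0.0142) and at least 3.06-fold (adjusted p = 0.0298). Without muscle 2, Col1a2 and Col3a1 were at least 5.17-fold and 14.9-fold lower. For Col5a1, Col6a1 and Col6a2 the log2 differences were −1.21, −3.06 and −2.66 without muscle 1, against −2.15, −3.88 and −3.15. Without muscle 2, Col5a1 and Col6a1 differed by −3.08 and −4.70.

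**Figure D4:**
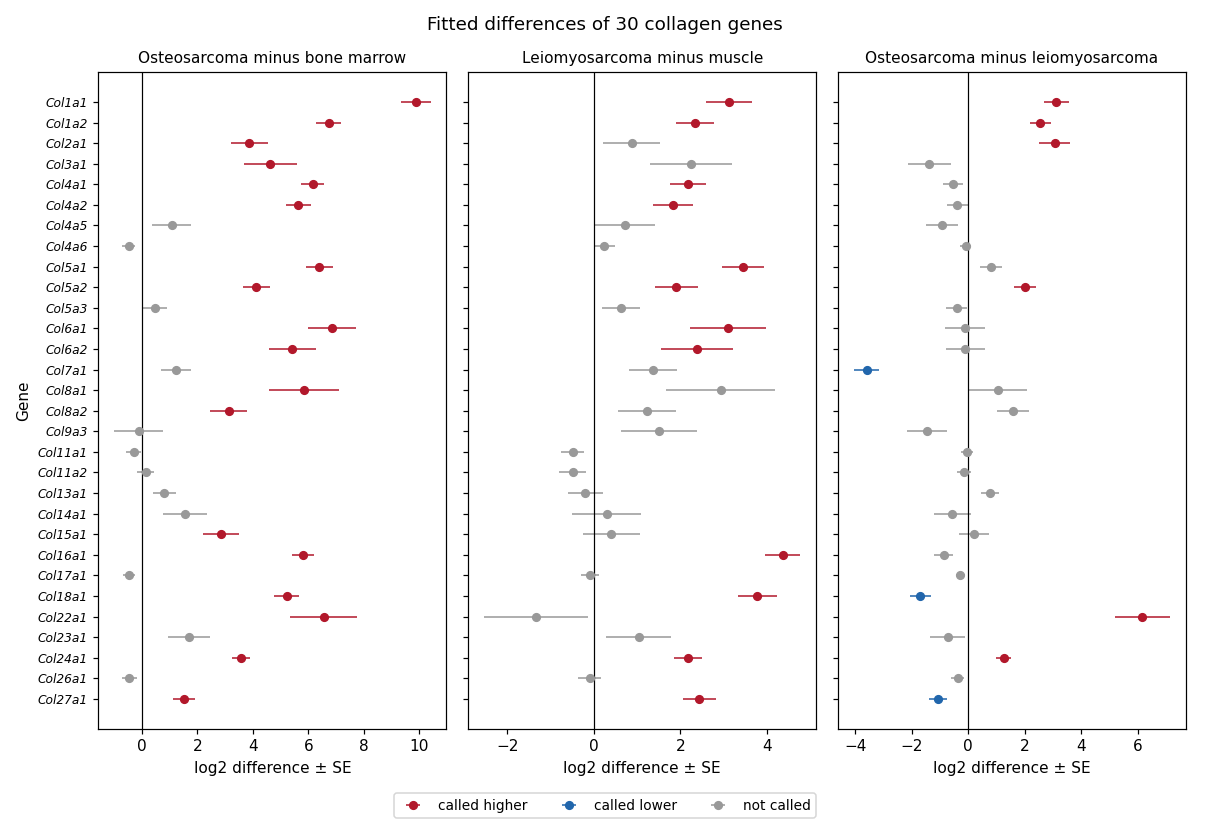
Fitted log2 difference ± SE (horizontal axis) of each of the 30 collagen genes for osteosarcoma minus bone marrow, leiomyosarcoma minus muscle and osteosarcoma minus leiomyosarcoma. Red points were called higher (18, 12 and 6 genes), blue points lower (0, 0 and 3) and grey points were not called.

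Of the 41 collagen genes, 11 did not pass detection and were not tested. Col10a1 (hypertrophic cartilage), Col4a3, Col4a4, Col6a6 and Col9a2 were detected on 0 of 12 arrays. Col19a1, Col25a1, Col28a1, Col6a4, Col6a5 and Col9a1 were each detected on 1. Col6a3, Col12a1 and Col20a1 were not analysed here. An undetected probe does not show that the gene was silent, since 27 of the 41 genes had several probes and these often differed.

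Genes that fold, trim and cross-link collagen were higher in osteosarcoma than in leiomyosarcoma for 8 of the 24 tested of 31 listed and lower for 0, also at an unadjusted p under 0.05, with a median difference of 0.59 against 0.01 over all genes. They were P4ha2, P3h1, P3h4, Crtap, Plod2, Fkbp14, Bmp1 and Serpinh1. Over all genes tested, 3.31% were called higher and 4.34% lower in that comparison. P3h1, which hydroxylates type 1 collagen in a complex with Crtap, read 8.56, 8.07, 7.60 and 7.88 in leiomyosarcoma and 9.52, 9.91, 9.53 and 9.20 in osteosarcoma, without overlap, a difference of 1.51 ± 0.24 (SE, adjusted p = 0.00257). Plod2, the lysyl hydroxylase of cross-link sites, read 8.43, 5.86, 8.25 and 7.94 in leiomyosarcoma and 9.52, 9.36, 9.90 and 10.29 in osteosarcoma, a difference of 2.15 ± 0.48 (SE, adjusted p = 0.0142) that was 1.57 without leiomyosarcoma 2 and ended with the block (adjusted p = 0.109). Serpinh1, the collagen chaperone, differed by 1.14 ± 0.33 (SE, adjusted p = 0.0472), a call that ended without any single array other than muscle 1, muscle 2 and osteosarcoma 3. The call of Bmp1, which cleaves procollagen, ended without any single array other than muscle 1, muscle 2, leiomyosarcoma 1 and osteosarcoma 2, and that of Fkbp14 without leiomyosarcoma 2 or osteosarcoma 2. With the background block the calls of Serpinh1 (adjusted p = 0.0936), Bmp1 (adjusted p = 0.109) and Fkbp14 (adjusted p = 0.0546) ended too, so 4 of the 8 held. Within the high-background arrays those 3 and P4ha2 (adjusted p = 0.0860) were not called. Against bone marrow, 19 of 24 were higher in osteosarcoma and 0 lower (median 2.54), and against muscle 13 were higher in leiomyosarcoma and 0 lower (median 1.79), with 0 and 1 lower at an unadjusted p under 0.05. Of all genes, 14.8% were called higher and 13% lower in the former comparison, and 20.1% and 15.1% in the latter.

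Of 10 tested of 12 listed regulators of collagen genes, 3 were higher and 1 lower in osteosarcoma than in leiomyosarcoma. Of all genes, 3.31% were called higher and 4.34% lower. Creb3l1, which drives Col1a1 transcription in mouse osteoblasts, read 5.39, 4.86, 4.94 and 5.18 in leiomyosarcoma and 7.89, 7.64, 7.98 and 7.49 in osteosarcoma, a difference of 2.66 ± 0.20 (SE, adjusted p = 8.48e-06), and was near or below detection in muscle (4.81 and 5.42) and bone marrow (5.05 and 5.04). Sp7, the osteoblast transcription factor, was at least 135-fold higher (adjusted p = 1.83e-10, a limma value for the fitted difference and not for this bound). It was detected on 4 of the 12 arrays and passed the detection filter without any leiomyosarcoma array. Tgfb1, a growth factor that raises collagen synthesis, was higher by 1.22 ± 0.26 (SE, adjusted p = 0.0109). Sox5, a partner of Sox9 in cartilage, differed by −2.11 ± 0.37 (SE, adjusted p = 0.00415), and by −1.38 with the background block.

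For receptors and degrading enzymes too, the all-gene shares between the tumours were 3.31% called higher and 4.34% lower. Of 8 tested of 10 listed collagen receptors, 1 was higher and 0 lower in osteosarcoma than in leiomyosarcoma (2 lower at an unadjusted p under 0.05). It was Itga11, an integrin chain that binds fibrillar collagen, with 9.34, 6.67, 9.11 and 7.55 in leiomyosarcoma, 10.94, 10.02, 10.41 and 11.24 in osteosarcoma and 2.49 ± 0.54 (SE, adjusted p = 0.0126), a call that ended with the block (adjusted p = 0.0744) and within the high-background arrays (adjusted p = 0.0533). Of 7 collagen-degrading enzymes, 3 were higher (Mmp13, Mmp9 and Ctsk) and 0 lower, also at an unadjusted p under 0.05. The calls of Mmp9 and Ctsk ended without bone marrow 1 or 2, leiomyosarcoma 1, 2 or 4 or osteosarcoma 1 or 4, and that of Ctsk also without leiomyosarcoma 3, while without osteosarcoma 2 the differences were 3.55 and 3.41 against 2.89 and 2.82. Both calls also ended with the block (adjusted p = 0.214 and adjusted p = 0.137) and within the high-background arrays (adjusted p = 0.346 and adjusted p = 0.229). Mmp13, the collagenase of bone and cartilage, read 11.31, 10.62, 10.14 and 10.51 in leiomyosarcoma and 15.56, 15.89, 14.70 and 15.89 in osteosarcoma, without overlap, a difference of 4.87 ± 0.31 (SE, adjusted p = 3.10e-06).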

How the data were processed

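Per the file headers, the authors deposited 1 average signal intensity per probe and array, with 1 background constant per array subtracted and no normalisation between arrays, beside a detection p-value. The computation of that p-value is not stated in any label or header used. The labels' protocols say that RNA was extracted with Trizol and labelled with biotin through the Ambion MessageAmp kit.

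The deposited intensities were background-corrected, with the background inferred from the detection p-values, and quantile-normalised to log2 by the neqc function (offset 16; limma 3.58.1 in R 4.3.3). Probes detected at p under 0.05 on 2 or more arrays were kept, and a gene was represented by its kept probe of highest mean. Limma fitted 4 group means to 11754 genes over 12 arrays (8 residual and 3.634 prior degrees of freedom), two-sided, with Benjamini-Hochberg adjustment over all genes. Genes were named from the platform annotation, and sequences came from RefSeq (GRCm38.p6).

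Members, gene lists, tests and alternatives were chosen with earlier results of these data known. By the rule for named genes, every detected member of types 1 to 5, 8, 10 and 11, every other member called between the tumours and the member of highest group mean in each remaining type were given sample by sample. The alternatives were other background corrections and normalisations, detection filters, the mean of all detected probes, a trended prior, the background set or the replicate number as a block, within-set fits and leaving out each array. Limma was tested on simulated data. The number of arrays limits the precision. Figures were drawn with matplotlib (3.10.9).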

Additional observations from a re-analysis of the deposited data

Results flagged for a closer look

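In a group of 4 samples, a value was listed here when its gap to the nearest other sample was a larger share of the group's range than Dixon's critical value. With 60 groups tested (30 genes in 2 tumours), 4 were found. A rate of about 3 by chance assumes normally distributed values. It does not hold for Col22a1, Col2a1 and Col4a5 here, whose other samples lay within or below the range of the detection limit. The 4 are therefore not weighed against chance. Col22a1 read 9.61 in leiomyosarcoma 2 and 4.64 to 5.27 in the other 3 leiomyosarcomas. Col2a1 read 7.38 in leiomyosarcoma 2 and 4.70 to 4.94 in the others. In osteosarcoma 2, Col3a1 read 6.49 against 10.10 to 10.31 in the other osteosarcomas, and Col4a5 read 7.59 against 4.90 to 5.24.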

How the results depend on the processing

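Of 180 gene comparisons (30 collagen genes, 6 comparisons), 141 exceeded their standard error and were followed through the alternatives, 86 of them called. Of those 86 calls, 54 kept direction and call under every alternative run and 0 changed direction. Of 3171 alternative values, 2987 kept direction and side of the threshold, 144 lost the call, 29 gained one and 11 changed sign, none of a called value. The 39 comparisons within their standard error have no direction.

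Fitted values are given for sign changes also where a group was undetected, and carry no fold there. The sign changes were 0.44 and 0.17 for Col11a1 in osteosarcoma against bone marrow and against muscle and 0.031 for Col26a1 against bone marrow (mean of all detected probes). The background block gave 0.063 for Col11a1 and −0.47 for Col7a1 in osteosarcoma against bone marrow. Median scaling gave −0.11 for Col13a1 in osteosarcoma and −0.53 for Col4a6 in leiomyosarcoma, both against muscle. With 1 array left out, Col11a1 ran from −0.64 to 0.044 in osteosarcoma against bone marrow, positive without bone marrow 2. Against muscle, Col26a1 in osteosarcoma ran from −0.95 to 0.0023, and Col11a2 and Col23a1 in leiomyosarcoma from −1.10 to 0.12 and from −0.15 to 2.22, each with the changed sign without muscle 1. The cause was not tested.

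The number of collagen genes called, 17 in osteosarcoma against muscle, was 9 with the background set as a block. In bone marrow against muscle it was 12, and 7 on unsubtracted values. With 1 array left out, the counts were 16 to 19 for osteosarcoma against bone marrow, 12 to 19 against muscle, 9 to 14 for leiomyosarcoma against muscle, 14 to 19 against bone marrow, 8 to 9 between the tumours and 7 to 13 for bone marrow against muscle, the 7 without muscle 1 or bone marrow 1. Unsubtracted values and normexp with an offset of 50 give smaller log2 differences by construction. Between the tumours they left Col24a1 at 0.88 and 0.95 and Col27a1 at −0.66 and −0.73, below a call. Against muscle, the mean of all detected probes ended the calls of Col7a1 (−1.09) and Col27a1 in osteosarcoma and of Col5a2 in leiomyosarcoma. With the replicate block the counts were 19, 16, 11, 17, 9 and 13 in that order, and Col14a1 was called in 3 comparisons where it was not without the block. The replicate numbers did not pair the samples, since the 14 same-numbered pairs had deviations that correlated at −0.08 to 0.08. Signals near background limit Col4a6, Col5a3, Col11a1, Col11a2, Col17a1 and Col26a1.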
